A study of Homo sapiens with 12 samples.

Results

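Keratins and epithelial adhesion genes were followed in the human pancreatic carcinoma cell line MIA PaCa-2 across high glutamine and gemcitabine. The set names 9 genes: the simple keratins KRT8, KRT18 and KRT19, the tight junction gene CLDN4, the laminin receptor subunits ITGB4 and ITGA6, the adhesion molecule L1CAM, and CDH1 and EPCAM. They were chosen by their symbol, as epithelial and adhesion genes that fall with glutamine in these same libraries. The table lists 7 of the 9 among its 15090 genes, all 7 were tested among 12789 tested genes, and CDH1 and EPCAM were not analysed here. The glutamine contrasts therefore chose these genes, and their values in them are given as a description with no test. The gemcitabine contrasts were not used for the choice, although each of them shares libraries with the glutamine contrasts.

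RNA was sequenced from 12 libraries in 4 groups of 3. The groups were 40 mM L-glutamine with 0.5 µM gemcitabine, 40 mM without drug, 2 mM with 0.5 µM gemcitabine, and 2 mM without drug, each for 48 h. Gemcitabine is a deoxycytidine analogue that blocks DNA synthesis. All groups are the same line, labelled wild type, kept in RPMI 1640 that lacked glutamine until it was added. The series design calls the 3 libraries of a group biological replicates, and nothing in the labels says whether they came from separate cultures on separate days, so p-values measure the spread between these libraries, which may be partly technical. Since all are bulk RNA of 1 line, fewer cells of a type and less RNA per cell cannot be told apart.

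Keratins form the intermediate filaments of epithelial cells from pairs of a type II and a type I chain. KRT8, KRT18 and KRT19 are among the keratins that pancreatic duct cells and ductal tumours use. Claudins seal tight junctions between neighbouring cells. The integrin of ITGA6 and ITGB4 binds laminin and, through plectin, anchors keratin filaments in hemidesmosomes, while L1CAM is a neural adhesion molecule that carcinomas, pancreatic ones included, can express.

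The upstream sequences of CLDN4 and L1CAM are shown because these genes had the largest falls of the set with glutamine in untreated cells and opposite responses to the drug at 40 mM. They are the 250 bases before a RefSeq start of the gene in GRCh38.p14, 5′ to 3′ on the gene's own strand, with matches in capitals to any of 3 motifs searched on both strands. The motifs were the AP-1 site TGACTCA, the GC box GGGCGG and the E-box CACCTG. They do not overlap one another in these windows.
CLDN4 (plus strand, chr7:73830746-73830995): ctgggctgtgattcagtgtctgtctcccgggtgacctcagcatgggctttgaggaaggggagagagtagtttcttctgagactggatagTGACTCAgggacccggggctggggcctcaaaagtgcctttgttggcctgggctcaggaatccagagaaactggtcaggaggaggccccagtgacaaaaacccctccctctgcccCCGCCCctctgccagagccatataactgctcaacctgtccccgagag
L1CAM (minus strand, chrX:153876015-153876264): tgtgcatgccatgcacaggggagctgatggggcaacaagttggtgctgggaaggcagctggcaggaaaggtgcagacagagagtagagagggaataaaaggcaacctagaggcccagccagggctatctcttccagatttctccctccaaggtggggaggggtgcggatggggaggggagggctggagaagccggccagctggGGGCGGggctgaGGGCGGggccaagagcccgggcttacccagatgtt
CLDN4 has 1 AP-1 match, which begins 161 bases before the start, and 1 GC box on the other strand, 47 bases before it. L1CAM has 2 GC boxes, at 47 and 35 bases before the start used here. Before another RefSeq start of L1CAM, its 2 GC boxes lie at 117 and 105 bases. Among 35116 RefSeq windows of this length, 4.20% hold the AP-1 letters, 42.6% the GC box and 17.5% the E-box. The reference table has windows for 4 of the 7 genes. Of those not shown, the KRT8 window has no match to any of the 3 motifs. ITGA6 has 2 E-boxes before 1 RefSeq start and 3 GC boxes before another. A match describes letters only.

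Per length of their merged exons, the genes ranged widely in level. Mean RPKM, reads per 1000000 and per 1000 bases, over the 12 libraries was 572 for KRT18, 385 for KRT8, 179 for KRT19, 115 for ITGB4, 29.9 for CLDN4, 8.64 for ITGA6 and 8.38 for L1CAM. The 3 keratins thus stood in the top few percent of tested genes, at percentiles 99.5, 99.1 and 98.1, and L1CAM and ITGA6 stood near the middle, at 50.6 and 51.6. The order of KRT8 and KRT18 depends on the length used: per length of the longest coding transcript KRT8 had 724 RPKM and KRT18 678 RPKM. Reads behind 1 library's value ran from 691 to 1615 for L1CAM and from 32053 to 73811 for KRT8.

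**Figure D1:**
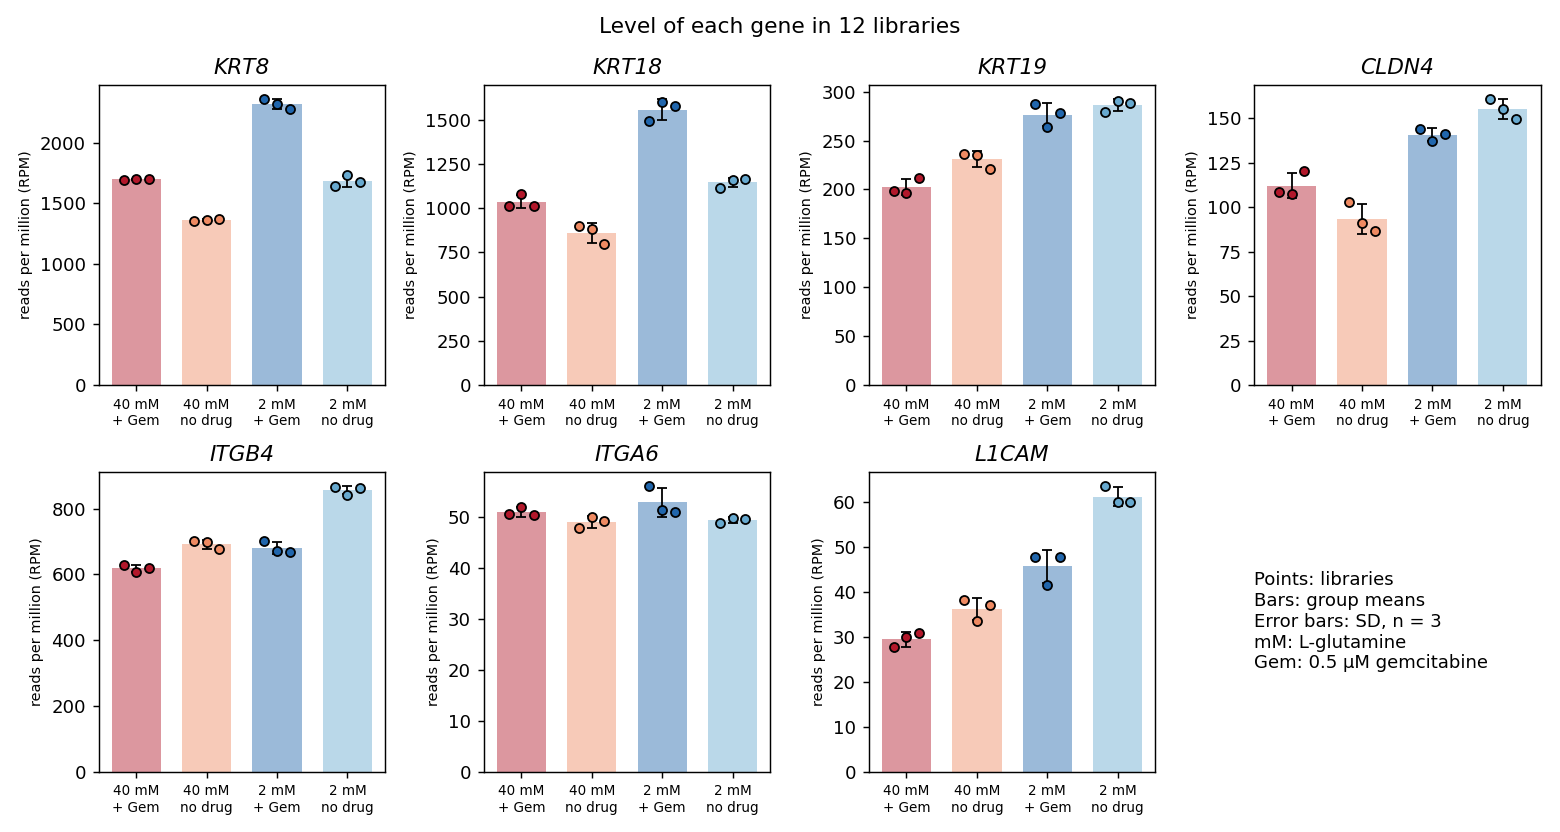
Reads per 1000000 (RPM) of each gene in every library (points), with the group mean (bars) and SD (error bars, n = 3), for 40 mM glutamine with gemcitabine, 40 mM without, 2 mM with and 2 mM without. KRT8 and KRT18 are highest at 2 mM with gemcitabine, L1CAM and ITGB4 are highest at 2 mM without drug, and ITGA6 stays between 47.7 and 56.0 RPM.

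Gemcitabine raised the keratin pair KRT8 and KRT18 at both glutamine levels, while the third simple keratin, KRT19, did not share in the rise. KRT8, the type II chain, had 2357, 2321 and 2276 RPM (reads per 1000000) at 2 mM with gemcitabine, against 1639.8, 1730 and 1677 RPM at 2 mM without drug. At 40 mM it had 1695, 1703 and 1699.5 RPM with gemcitabine, against 1355, 1359.7 and 1371 RPM without drug. All 3 drug-treated libraries lay above all 3 untreated ones at each glutamine level, and the level at 40 mM with gemcitabine fell within the range at 2 mM without drug. The log2 fold change of RPM plus 1 was 0.46 ± 0.026 at 2 mM (SE; limma adjusted p = 5.28e-16) and 0.32 ± 0.026 at 40 mM (limma adjusted p = 6.29e-12). Quantile normalization put the 40 mM value at 0.48, over 1.5 times as large, with the call kept.

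KRT18, the type I partner of KRT8, had 1491, 1603 and 1579.7 RPM at 2 mM with gemcitabine, against 1114, 1159.6 and 1164 RPM without drug. Its values at 40 mM were 1015, 1082 and 1015 RPM with gemcitabine, against 899, 882 and 795 RPM without. The 4 groups did not overlap and ran, from high to low, 2 mM with drug, 2 mM without, 40 mM with drug and 40 mM without. The drug response was 0.44 ± 0.035 on the log2 scale at 2 mM (SE; limma adjusted p = 4.24e-12) and 0.27 ± 0.035 at 40 mM (limma adjusted p = 1.54e-07).

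KRT19, a type I keratin of duct cells, had 288, 264 and 278 RPM at 2 mM with gemcitabine, against 279.6, 291 and 289 RPM without drug, and these groups overlapped. The 40 mM libraries had 199, 196 and 211 RPM with gemcitabine, against 236, 235 and 221 RPM without drug, with every treated library below every untreated one. At 2 mM the change was −0.05 ± 0.035 on the log2 scale (SE; limma adjusted p = 0.285), with a 95% interval from −0.12 to 0.02. At 40 mM KRT19 fell by 0.19 ± 0.035 (limma adjusted p = 6.90e-05).

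Keratin levels are uncertain to the extent that reads were split with near-identical copies: GENCODE release 29 names 50 pseudogenes of KRT8, 67 of KRT18 and 5 of KRT19, of which the table lists 0. The 3 keratins together took 0.302 ± 0.0041% of a library's reads at 40 mM with gemcitabine and 0.245 ± 0.0050% at 40 mM without drug (SD, n = 3 each). At 2 mM they took 0.411 ± 0.0035% with gemcitabine and 0.307 ± 0.0062% without drug. The drug-treated libraries were higher at each glutamine level without overlap, and the groups at 40 mM with gemcitabine and 2 mM without drug overlapped.

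Ratios were formed within each library. The log2 ratio of KRT18 to KRT8 averaged −0.57 ± 0.075 at 2 mM with gemcitabine and −0.55 ± 0.025 at 2 mM without drug (SD, n = 3 each), a difference of −0.02 (two-sided exact permutation p = 0.8). At 40 mM it averaged −0.71 ± 0.050 with gemcitabine and −0.67 ± 0.104 without, a difference of −0.05 (exact permutation p = 0.6). The groups overlapped at both levels, so a shift in the pair under the drug was not detectable with 3 against 3 libraries, where the smallest possible p is 0.1. Further ratios were chosen after their values were seen and are given as a description, without a p-value. KRT19 to KRT8 differed by −0.51 with gemcitabine against without at 2 mM and by −0.51 at 40 mM, with no overlap at either. KRT19 to KRT18 differed by −0.49 at 2 mM and −0.47 at 40 mM, with no overlap at either. ITGB4 to ITGA6 differed by −0.43 at 2 mM and −0.22 at 40 mM, also without overlap. As a description, the glutamine difference in the KRT18 to KRT8 ratio, 40 against 2 mM, was −0.14 with gemcitabine and −0.11 without drug.

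**Figure D2:**
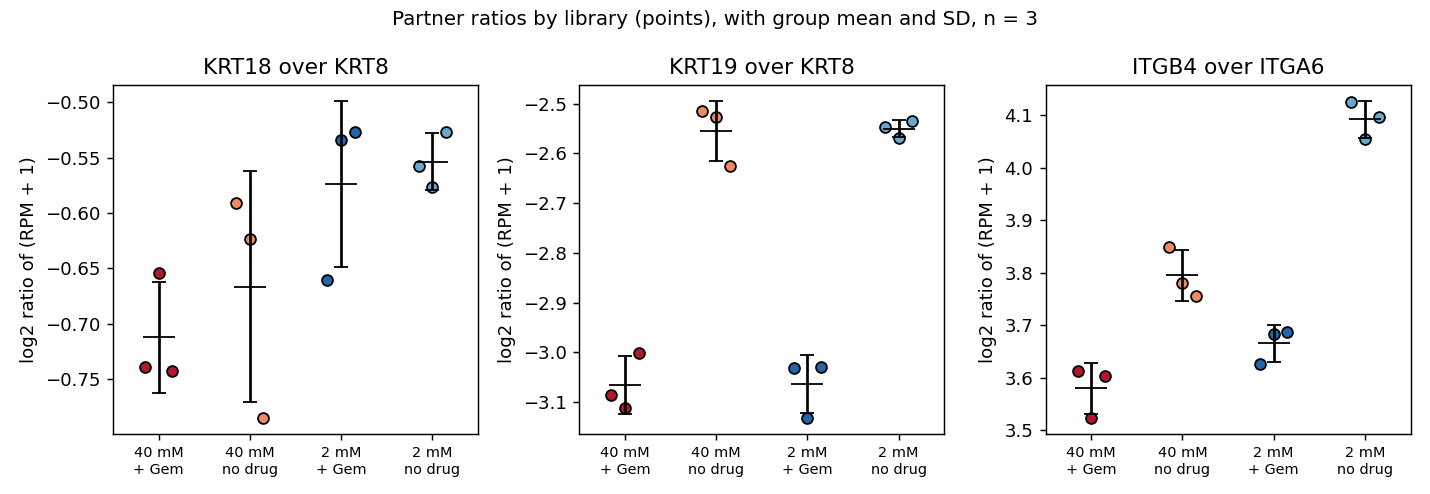
Log2 ratio of RPM plus 1 for KRT18 over KRT8, KRT19 over KRT8 and ITGB4 over ITGA6 in each library (points), with group mean and SD (lines, n = 3); the vertical axes do not start at 0. KRT19 over KRT8 lies near −3.07 in the drug-treated groups and near −2.55 in the untreated ones at either glutamine level, while KRT18 over KRT8 overlaps between treated and untreated libraries.

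CLDN4 encodes a claudin of tight junctions that pancreatic tumours often express strongly. Its response to gemcitabine had opposite signs at the 2 glutamine levels. At 40 mM it had 109, 107 and 120.3 RPM with gemcitabine, against 103, 90.8 and 86.4 RPM without drug. At 2 mM it had 144, 137 and 141 RPM with gemcitabine, against 161, 155 and 149.8 RPM without drug. Treated libraries were all above untreated ones at 40 mM and all below them at 2 mM. On the log2 scale CLDN4 rose by 0.26 ± 0.048 at 40 mM (SE; limma adjusted p = 5.30e-05) and fell by 0.14 ± 0.048 at 2 mM (limma adjusted p = 0.0218). The untreated libraries are the reference of these contrasts and also make up the glutamine contrast without drug. A choice on the fall in that contrast favours a lower drug response at 2 mM and a higher one at 40 mM. These p-values do not account for that choice, and its part in the opposite signs was not tested. The call at 2 mM was lost without untreated replicate 1 (adjusted p = 0.108) and without treated replicate 2 (0.0995) or 3 (0.0525), where the value stayed between −0.14 and −0.11; over all 19 alternative settings the adjusted p ran from 0.00249 to 0.108.

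ITGB4, the integrin chain that links laminin to keratin filaments, fell with the drug at both glutamine levels. It had 702, 672 and 668 RPM at 2 mM with gemcitabine, against 866, 842 and 862 RPM without drug. Values at 40 mM were 629, 607 and 621 RPM with gemcitabine, against 701, 698 and 677 RPM without. The groups did not overlap at either level, while 40 mM without drug and 2 mM with drug overlapped. ITGB4 fell by 0.33 ± 0.028 at 2 mM (SE, log2; limma adjusted p = 1.34e-11) and by 0.16 ± 0.028 at 40 mM (limma adjusted p = 2.37e-05). In GENCODE release 29 ITGB4 overlaps GALK1, a galactose enzyme gene on the opposite strand. KRT8 and KRT18 likewise overlap each other on opposite strands, and the strand setting of the counting is not given here. The level of GALK1 changed by −0.15 at 2 mM (limma adjusted p = 0.0349) and by −0.24 at 40 mM (limma adjusted p = 0.00126), and the part of shared reads was not tested.

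ITGA6, the partner of ITGB4 in the laminin receptor, had 56.0, 51.4 and 50.9 RPM at 2 mM with gemcitabine, against 48.7, 49.7 and 49.5 RPM without drug. At 40 mM it had 50.5, 51.9 and 50.2 RPM with gemcitabine, against 47.7, 49.9 and 49.2 RPM without. Treated libraries lay above untreated ones at both levels, by little. Neither change passed the test: 0.10 ± 0.049 at 2 mM (SE, log2; limma adjusted p = 0.134; 95% interval −0.005 to 0.20) and 0.06 ± 0.049 at 40 mM (limma adjusted p = 0.435; 95% interval −0.05 to 0.16).

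L1CAM fell with gemcitabine at both glutamine levels. It had 47.7, 41.4 and 47.7 RPM at 2 mM with gemcitabine, against 63.5, 60.0 and 59.8 RPM without drug. The values at 40 mM were 27.6, 29.8 and 30.8 RPM with gemcitabine, against 38.1, 33.5 and 37.1 RPM without. The 4 groups were fully apart, from 2 mM without drug at the top, through 2 mM with drug and 40 mM without drug, to 40 mM with drug at the bottom. L1CAM fell by 0.42 ± 0.061 at 2 mM (SE, log2; limma adjusted p = 1.90e-06) and by 0.29 ± 0.061 at 40 mM (limma adjusted p = 0.000367).

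Counted together, 2 of the 7 genes were higher (KRT8 and KRT18), 3 were lower (CLDN4, ITGB4 and L1CAM) and 2 were not called with gemcitabine at 2 mM, where 17.5% of all tested genes were called higher and 17.1% lower. At 40 mM 3 were higher (KRT8, KRT18 and CLDN4), 3 were lower (KRT19, ITGB4 and L1CAM) and 1 was not called, against 14.1% and 16.2% of all tested genes. The median drug response of the 7 was −0.05 at 2 mM and 0.06 at 40 mM, with −0.001 and −0.005 over all tested genes. The genes did not move as 1 block under the drug: the filament pair rose, and the laminin receptor chain ITGB4 and L1CAM fell.

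**Figure D3:**
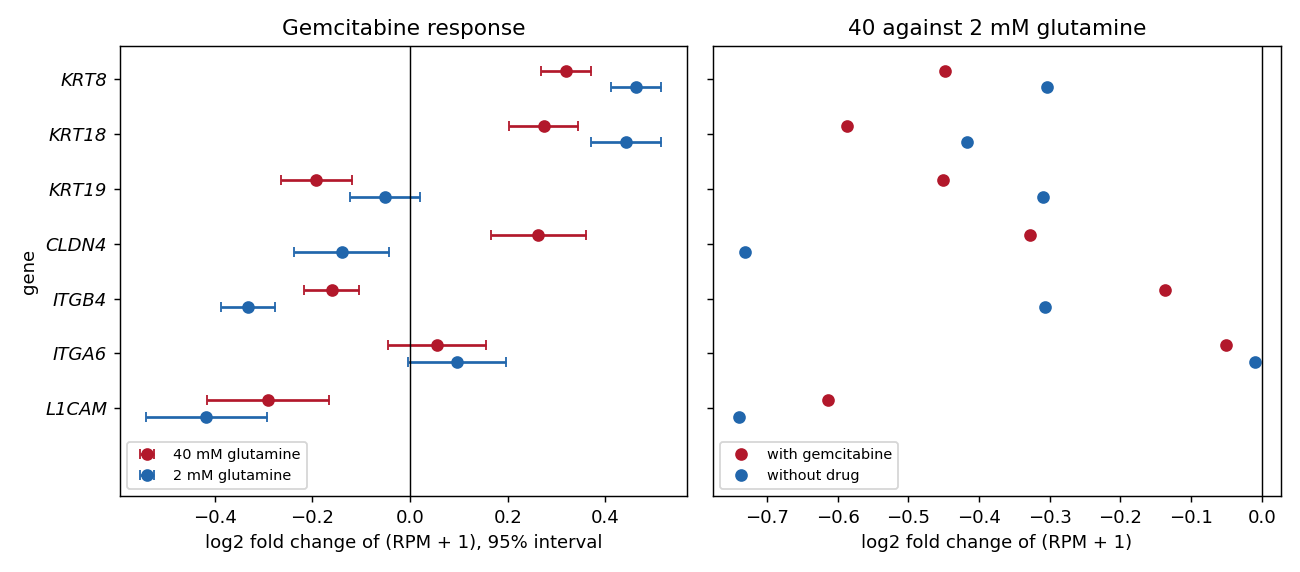
Log2 fold change of RPM plus 1 for each gene, with gemcitabine against without at 40 mM and at 2 mM (left, with 95% intervals of the limma fit), and 40 against 2 mM glutamine with gemcitabine and without drug (right, the contrasts that chose the genes, shown without intervals). On the left CLDN4 is at 0.26 at 40 mM and at −0.14 at 2 mM, while the other 6 genes keep their side of 0. On the right ITGA6 lies next to 0 and the other 6 genes lie between −0.74 and −0.14.

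The response to gemcitabine at 40 mM minus that at 2 mM equals the difference between the glutamine contrasts with and without drug, on which the genes were chosen, so it is given as a description with no test. For CLDN4 it was 0.40 ± 0.067 (SE, log2), between 0.35 and 0.47 over 18 alternative settings. For ITGB4 it was 0.17 ± 0.039, a smaller fall at 40 mM. For KRT8 it was −0.14 ± 0.036 and for KRT18 −0.17 ± 0.050, smaller rises at 40 mM, which quantile normalization put at −0.06 and −0.09. KRT19 had −0.14 ± 0.050, L1CAM 0.13 ± 0.087 and ITGA6 −0.04 ± 0.070.

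In the glutamine contrasts that chose them, all 7 genes had a log2 change below 0, except ITGA6 under some settings: with each library scaled to its own total it was at 0.003 with gemcitabine and 0.01 without drug, and without drug it was at 0.008 when 40 mM untreated replicate 1 was left out. In the deposited scaling 6 of 7 had every 40 mM library below every 2 mM library, both with gemcitabine and without drug. The share of all tested genes set apart in this way is not given here. By the limma call, a different measure, 13% of all tested genes were lower and 8.62% higher at 40 mM with gemcitabine. Without drug 9.12% were lower and 8.41% higher. L1CAM averaged 29.4 ± 1.65 RPM at 40 mM with gemcitabine against 45.6 ± 3.65 RPM at 2 mM with gemcitabine, and 36.2 ± 2.43 RPM at 40 mM against 61.1 ± 2.05 RPM at 2 mM without drug (SD, n = 3 each). These are log2 changes of −0.61 with gemcitabine and −0.74 without drug. CLDN4 changed by −0.33 with gemcitabine and by −0.73 without drug, so its glutamine difference was the one most reduced in drug-treated cells in absolute size.

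The keratins had the reverse pattern, with values further from 0 in drug-treated cells. KRT18 changed by −0.59 with gemcitabine and −0.42 without drug, KRT8 by −0.45 and −0.30, and KRT19 by −0.45 and −0.31. Quantile normalization kept this order with smaller gaps. It put KRT18 at −0.45 with gemcitabine and −0.37 without drug, KRT8 at −0.31 and −0.25, and KRT19 at −0.40 and −0.28. ITGB4 changed by −0.14 with gemcitabine and −0.31 without drug; the value with gemcitabine was −0.05 after quantile normalization and −0.08 with each library scaled to its own total. ITGA6 was near 0 in both, at −0.05 with gemcitabine and −0.01 without drug, and overlapped between glutamine levels. The median over the 7 genes was −0.45 with gemcitabine and −0.31 without drug, beside −0.002 and 0.002 over all tested genes.

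Genes with the closest course over the 12 libraries were sought among 6394 tested genes at or above the median level, by the root mean square difference of log2 values after centring each gene. For KRT18 these were KRT8 (0.087), PTX3 (0.099), a secreted pentraxin, and FHL2 (0.112), a LIM domain protein. For CLDN4 they were STMN3 (0.127), a microtubule-destabilizing stathmin, FDXR (0.129), the mitochondrial ferredoxin reductase, and PLEKHG2 (0.134). None of these had the lower mean of CLDN4 with gemcitabine at 2 mM. There STMN3 averaged 674 RPM with gemcitabine and 637 RPM without drug, FDXR 85.9 and 79.0 RPM, and PLEKHG2 38.4 and 38.0 RPM. For L1CAM they were PLAC8 (0.162), CAV1 (0.184), the caveola protein caveolin 1, and IFITM1 (0.184), an interferon-induced membrane protein. KRT8 was the gene nearest to its own filament partner among those compared. Both were chosen for their fall with glutamine, which enters this distance, so their nearness is a description. The genes nearest to L1CAM were further from it than those nearest to KRT18 or CLDN4.

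Other genes of junctions, filaments and adhesion were read from 9 lists of 123 genes in all, of which 66 were tested. The drug was followed by 14 rises and 16 falls at 2 mM, where 17.5% of all tested genes were called higher and 17.1% lower, and by 10 rises and 16 falls at 40 mM, beside 14.1% and 16.2%. With 40 against 2 mM glutamine 5 rose and 19 fell in drug-treated cells, beside 8.62% and 13% of all tested genes, and the 19 falls were as few as 11 under an alternative setting. Without drug 6 rose and 14 fell, beside 8.41% and 9.12%, and these 14 falls were as few as 11 under an alternative setting. The falls with the drug were then as few as 12 at 2 mM and 11 at 40 mM, and the rises as few as 12 and 8. Of the 66, COL17A1 was the 1 gene that passed a test of whether its response to the drug differed between the glutamine levels (the interaction), in which 0.727% of all tested genes were called higher and 1.47% lower.

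Of 6 other keratins tested, 2 fell with the drug at each level (beside 17.1% of all tested genes at 2 mM and 16.2% at 40 mM) and 4 were not called, with list medians of −0.18 at 2 mM and −0.26 at 40 mM. KRT80, a type II keratin, fell by 0.26 ± 0.034 at 2 mM (SE, log2; limma adjusted p = 3.26e-07) and by 0.41 ± 0.034 at 40 mM (limma adjusted p = 1.18e-11). KRT15, a type I keratin of basal cells, fell by 0.34 ± 0.064 and 0.42 ± 0.064 (limma adjusted p = 7.66e-05 and 3.64e-06). With glutamine and no drug 1 of the 6, KRT10, was called lower, beside 9.12% of all tested genes. That call was lost in 5 of 19 settings.

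Of the tight junction genes, 4 of 16 were higher and 2 lower under gemcitabine at 2 mM, and 5 were higher and 2 lower at 40 mM. The shares of all tested genes were 17.5% higher and 17.1% lower at 2 mM and 14.1% and 16.2% at 40 mM. The lower call of PATJ, a polarity scaffold named after its values were seen, was lost in 14 of 19 settings at 40 mM. CGN, the cytoplasmic linker cingulin, averaged 6.14 RPM at 2 mM with gemcitabine and 2.999 RPM without drug, and 4.29 RPM at 40 mM with gemcitabine and 2.32 RPM without. It rose by 0.84 ± 0.14 at 2 mM (limma adjusted p = 1.13e-05) and by 0.68 ± 0.14 at 40 mM (limma adjusted p = 0.000200), and CLDN1, another sealing claudin, rose by 0.37 and 0.29 (limma adjusted p = 0.000630 and 0.00751). TJP3, a scaffold, fell at 2 mM by 0.42 (limma adjusted p = 0.00539), and at 40 mM CLDN11 fell by 0.15 (limma adjusted p = 0.00508, lost without 40 mM untreated replicate 1). With glutamine in untreated cells 1 of the 16 was called, CLDN11, lower by 0.19 (limma adjusted p = 0.000870). Of all tested genes 9.12% were called lower and 8.41% higher in that comparison.

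In the hemidesmosome list COL17A1, the transmembrane collagen that joins ITGA6 and ITGB4 in hemidesmosomes, averaged 159 RPM at 2 mM with gemcitabine and 78.6 RPM without drug, and 138 RPM at 40 mM with gemcitabine and 84.0 RPM without. It rose by 1.01 ± 0.040 at 2 mM (SE, log2; limma adjusted p = 3.78e-20) and by 0.71 ± 0.040 at 40 mM (limma adjusted p = 6.65e-16), with an interaction of −0.30 ± 0.056 (limma adjusted p = 0.00194) that was called in all 18 settings tried. Besides it, 1 of the 6 genes rose and 3 fell at 2 mM, and 3 fell at 40 mM. The shares of all tested genes were 17.5% higher and 17.1% lower at 2 mM, and 14.1% and 16.2% at 40 mM. ITGA3, the integrin chain of another laminin receptor, fell by 0.15 and 0.14 (limma adjusted p = 8.96e-05 and 0.000220), DST, a plakin linker, fell at 2 mM by 0.36 (limma adjusted p = 2.05e-05; −0.23 at the smallest when 1 library was left out), and PLEC, plectin, fell at 40 mM by 0.12 (limma adjusted p = 0.00575). The PLEC call at 40 mM was lost under quantile normalization and with each library scaled to its own total, with a value of −0.03 at the smallest. With glutamine in untreated cells ITGA3 fell by 0.10 (limma adjusted p = 0.00936), and DST fell by 0.17 (limma adjusted p = 0.0471), a call lost in 14 of 19 settings.

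The tested genes of the list of L1 family members and partners were the partners ANK1, ANK2, EZR, ADAM10 and NRP1. With the drug 4 of these 5 fell at 2 mM and 5 at 40 mM, beside 17.1% and 16.2% of all tested genes, with list medians of −0.29 and −0.35. The counts were as low as 2 and 3 under alternative settings. EZR, the membrane linker ezrin, changed by −0.02 at 2 mM (limma adjusted p = 0.623) and fell by 0.08 at 40 mM (limma adjusted p = 0.0399, lost in 6 of 19 settings). ANK1, an ankyrin, the adaptor family that binds the L1 tail, fell by 0.47 ± 0.036 at 2 mM (limma adjusted p = 2.49e-12) and by 0.52 ± 0.036 at 40 mM (limma adjusted p = 1.48e-13). ADAM10, a protease that sheds the L1 ectodomain, fell by 0.20 and 0.23 (limma adjusted p = 7.68e-06 and 5.04e-07). NRP1, a semaphorin co-receptor, fell at 2 mM by 0.30 (limma adjusted p = 0.0232, lost without 2 mM untreated replicate 2 or 2 mM gemcitabine replicate 2), and ANK2 fell at 40 mM by 0.37 (limma adjusted p = 0.00523). With glutamine and no drug, 1 rose and 1 fell, beside 8.41% and 9.12% of all tested genes. ANK1 rose by 0.12 (limma adjusted p = 0.0200, lost without 2 mM untreated replicate 3 or 40 mM untreated replicate 2). EZR fell by 0.14 (limma adjusted p = 0.000770).

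Among the other integrins 2 of 7 fell with the drug at 2 mM and 1 at 40 mM, beside 17.1% and 16.2% of all tested genes. ITGB1, the common β chain, fell by 0.18 at each level (limma adjusted p = 4.52e-06 and 3.80e-06), with a value as small as −0.09 at 40 mM among the settings tried. ITGAV, the chain of vitronectin receptors, fell at 2 mM by 0.12 (limma adjusted p = 0.0226, lost without 2 mM untreated replicate 2 or 2 mM gemcitabine replicate 3). With glutamine in untreated cells 3 rose and 1 fell, beside 8.41% and 9.12% of all tested genes. The rises were as few as 2 under an alternative setting. ITGB1 and ITGAV each rose by 0.15 (limma adjusted p = 0.000162 and 0.00686). ITGA5, the fibronectin receptor chain, fell by 0.22 (limma adjusted p = 0.00234). The higher call of ITGA7, named after its values were seen and at a mean of 1.06 RPM, was lost in 6 of 19 settings.

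**Figure D4:**
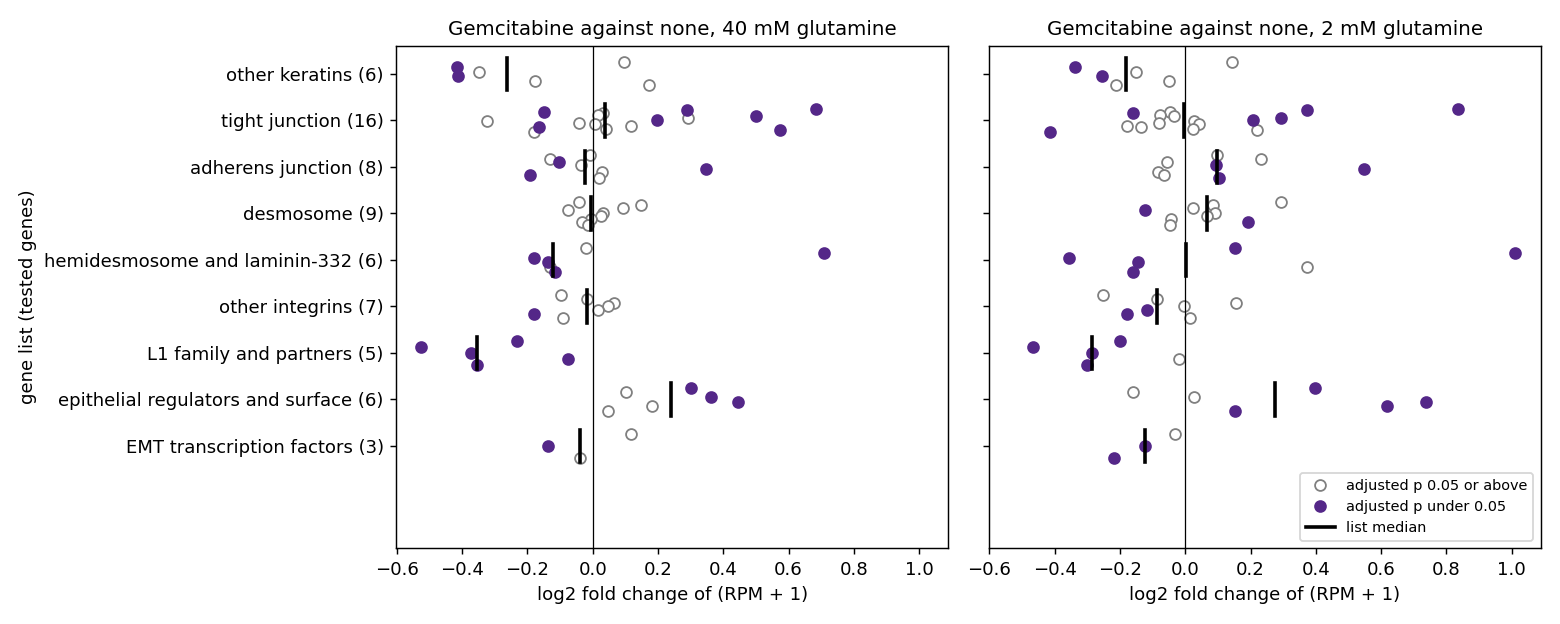
Log2 fold change of RPM plus 1 with gemcitabine against without for each tested gene of 9 lists at 40 mM (left) and 2 mM glutamine (right); filled points have a limma adjusted p under 0.05 over all tested genes and vertical bars mark list medians. COL17A1 is the rightmost point of each panel, at 0.71 and 1.01, and the L1 partners and other keratins have medians below −0.1 on both sides.

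Of 6 epithelial regulators and surface genes 4 rose with the drug at 2 mM and 3 at 40 mM, beside 17.5% and 14.1% of all tested genes, and the count at 40 mM was as low as 1 under an alternative setting. EHF, an epithelial ETS factor, rose by 0.40 ± 0.034 at 2 mM (limma adjusted p = 3.44e-11) and by 0.30 ± 0.034 at 40 mM (limma adjusted p = 1.49e-08). KLF5, an epithelial Krüppel-like factor, rose by 0.74 ± 0.15 and 0.44 ± 0.15 (limma adjusted p = 0.000185 and 0.0208), from levels of 1.71 RPM at 2 mM and 2.26 RPM at 40 mM in untreated cells, and the 40 mM call was lost in 3 of 19 settings. MUC1, a surface mucin, rose at 2 mM by 0.62 (limma adjusted p = 0.00323, lost without 2 mM untreated replicate 2), and GRHL1, a grainyhead-like factor, rose at 40 mM by 0.36 (limma adjusted p = 0.0388, lost in 6 of 19 settings). With glutamine in untreated cells 1 gene of the list was called higher and 1 lower, beside 8.41% and 9.12% of all tested genes. EHF was higher by 0.23 (limma adjusted p = 7.45e-06). ELF3, a related factor, was lower by 0.40 (limma adjusted p = 0.00871, lost without 2 mM untreated replicate 3 or 40 mM untreated replicate 3).

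Among EMT transcription factors, those that drive the epithelial to mesenchymal transition, 2 of 3 fell with the drug at 2 mM and 1 at 40 mM, beside 17.1% and 16.2% of all tested genes. ZEB1, which represses epithelial genes, fell at 2 mM by 0.22 ± 0.056 (limma adjusted p = 0.00246), and TCF3 fell by 0.12 and 0.14 (limma adjusted p = 0.00184 and 0.000713). TCF3 was also lower with glutamine in untreated cells, by 0.11 (limma adjusted p = 0.00895, lost without 40 mM untreated replicate 2).

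Of 8 adherens junction genes 3 rose with the drug at 2 mM, beside 17.5% of all tested genes, and 1 rose and 2 fell at 40 mM, beside 14.1% and 16.2%. NECTIN1, a cell adhesion nectin, rose by 0.55 and 0.35 (limma adjusted p = 0.000553 and 0.0272, the second lost in 4 of 19 settings). At 2 mM VCL, vinculin, rose by 0.10 (limma adjusted p = 0.00366) and CTNNB1, β-catenin, by 0.10 (limma adjusted p = 0.0228, lost in 5 of 19 settings). At 40 mM CTNNA1, α-catenin, fell by 0.10 (limma adjusted p = 0.00702, lost in 3 of 19 settings), and NECTIN3 fell by 0.19 (limma adjusted p = 0.00849, lost without 40 mM gemcitabine replicate 2). With glutamine in untreated cells CTNNB1 rose by 0.13, NECTIN2 fell by 0.19 and VCL fell by 0.10 (limma adjusted p = 0.00484, 0.00154 and 0.0145), the last a call lost in 3 of 19 settings.

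Of the 9 desmosome genes 4 fell at 40 mM glutamine in untreated cells, beside 9.12% of all tested genes. Among them DSP, desmoplakin, fell by 0.20, and the plakophilins PKP4 and PKP2 fell by 0.19 and 0.29 (limma adjusted p = 0.00309, 0.00359 and 0.00499). With the drug at 2 mM PKP3, another plakophilin, rose by 0.19 (limma adjusted p = 0.00180), and EVPL, envoplakin, fell by 0.12 (limma adjusted p = 0.0180, lost without 2 mM untreated replicate 3 or 2 mM gemcitabine replicate 2).

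Library depth, as reads over the listed genes, lay between 21723094 and 32811746. The deposited RPM values sum to between 971668 and 974406 in the 3 libraries at 40 mM with gemcitabine, against 998053 to 1021040 in the other 9. Of 10 ductal markers 6 are listed, which include KRT8, KRT18, KRT19 and CLDN4, and 0 of 7 acinar markers are listed. Summed mesenchymal, fibroblast and leukocyte markers differed with the drug without overlap at each glutamine level, while endothelial ones overlapped at both levels. Endocrine ones overlapped at 2 mM, and at 40 mM they summed to 8.65 to 9.40 RPM with gemcitabine and 7.60 to 8.25 RPM without drug. The 3 of 8 mesenchymal markers that are listed, nearly all VIM, summed to 2991 to 3044 RPM with gemcitabine and 3299 to 3456 RPM without drug at 40 mM, and to 3187 to 3309 and 3422 to 3536 RPM at 2 mM. The 3 of 6 listed fibroblast markers, nearly all COL1A2, summed to 663 to 716 RPM with gemcitabine and 882 to 911 RPM without drug at 40 mM, and to 596 to 644 and 761 to 784 RPM at 2 mM. The 2 of 5 listed leukocyte markers, nearly all CD68, summed to 42.8 to 44.4 RPM with gemcitabine and 19.3 to 22.8 RPM without drug over both levels. The part of these markers in the drug responses was not tested.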

How the data were processed

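Per the labels' protocols, RNA was purified on RNeasy columns and a company made the libraries. The authors deposited log2 values for 15090 gene symbols in 12 libraries. From the values, each is log2 of reads per 1000000 (RPM) plus 1, after scaling between libraries, and 100% of values are whole reads within 0.05 read. Not given in the sources used here are the aligner, build, counting program and strand setting.

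Genes with at least 1 RPM in at least 3 libraries (12789) were fitted on the deposited log2 scale with limma 3.58.1 (R 4.3.3), 1 mean per group for 4 groups, 12 libraries sharing the spread, and a trended prior. P-values, two-sided, were Benjamini-Hochberg adjusted over all tested genes with a threshold of 0.05. The added 1 RPM makes fold changes of low genes understated. Permutation tests used SciPy 1.17.1. Within groups the chi-square of reads over its degrees of freedom was 2.35 to 5.33, so each library counts once. The script was tested on simulated data. Lengths and overlaps came from GENCODE release 29, with lengths for 12025 tested genes, and upstream sequences from RefSeq. Alternatives were a pseudocount of 0.25, no filter, quantile normalization, voom weights, a replicate block, scaling to each library's own total (added after seeing the data), only the compared groups, and leaving out each library.

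The interaction, planned as a test, is a description for the members, since the contrasts that chose them make it up. The genes and lists were chosen with earlier results of these data known. Named are the listed members, the called genes of each list with the 3 smallest p in each drug comparison and in glutamine without drug, and the 3 nearest courses of KRT18, CLDN4 and L1CAM. The result of 1 gene that this rule names is not reported here, though it remains in all fits and counts.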

Additional observations from a re-analysis of the deposited data

Results flagged for a closer look

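The response of CLDN4 to gemcitabine at 40 mM minus that at 2 mM glutamine was 0.40 on the log2 scale, with all 3 treated libraries above the untreated ones at 40 mM and all 3 below them at 2 mM. This difference was not tested, because it is made up of the glutamine contrasts on which the gene was chosen, and its cause was not tested. The fall at 2 mM lost its call when any 1 of 3 libraries was left out (2 mM untreated replicate 1, 2 mM gemcitabine replicate 2 or 3), with limma adjusted p up to 0.108.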

How the results depend on the processing

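The drug responses of the 7 genes kept their direction and side of the threshold in 133 of 133 alternative values at 40 mM and 130 of 133 at 2 mM, the other 3 being CLDN4 without 1 library. Part of these values could not change direction. No filter, the replicate block, only the compared groups, and leaving out a library of another group keep the log2 value, so only the call could move. With each library scaled to its own total, 2017 genes were called higher and 941 lower for glutamine with gemcitabine, against 1102 and 1663. The interaction called 96 genes lower with quantile normalization and 97 with own totals, against 188. With the replicate block 2 of the 7 genes were higher and 3 lower with the drug at 2 mM, as without it, and no call of the 7 changed at either level. Leaving out 1 library gave 47 to 103 genes higher and 104 to 263 lower in the interaction; the ratio of KRT18 to KRT8 then differed with the drug by −0.04 to 0.02 at 2 mM and by −0.11 to −0.01 at 40 mM.

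Calls that were higher made up 48.0% for glutamine without drug, 39.9% with gemcitabine, 46.6% for the drug at 40 mM and 33.1% for the interaction; own totals gave 61.2%, 68.2%, 62.9% and 58.9%, and quantile normalization gave 50.1% with gemcitabine and 54.7% for the interaction. Replicate numbers did not pair samples: deviations of same-numbered samples correlated from −0.08 to 0.05 over 18 pairs, and 5 of 12 samples correlated best with their own number. The cause of these shifts was not tested. Depth limits mainly L1CAM and ITGA6, which had the fewest reads of the 7 genes.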
